A study of Mus musculus with 33 samples.

Results

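Gene expression on the first day after birth was compared in the MNTB, the medial nucleus of the brainstem's trapezoid body, between 5 mice at P1 and 5 mice at P0. These 10 arrays were chosen from 33 by the age in their titles, and mice of the 2 ages were matched by the litter number that the titles also give. All animals were wild-type FVB mice without treatment (their strain tag reads FVN), and each array holds RNA of a single mouse. The remaining arrays come from mice aged P2, P3, P4, P6 and P14, handled in the same way. The tissue was picked from live brain slices with a needle, which enriches for MNTB cells but can take glia, vessels and passing axons along. The labels give age in whole days and no sex or hour of birth, and they do not say that a litter number means the same litter at both ages.

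The MNTB is a relay of the auditory brainstem whose principal neurons release glycine and mark the timing of sound for other nuclei. Around birth these neurons carry several thin glutamatergic inputs, and within days a single one grows into the giant calyx of Held while the others are lost. The same days bring the change from depolarising to hyperpolarising inhibition, the spread of astrocytes, and the arrival of the oligodendrocytes that later wrap the axons. In a bulk sample of this kind, fewer cells of a type and less RNA per cell cannot be told apart.

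The tissue carried the label's markers at both ages. Slc6a5, the neuronal glycine transporter that defines glycinergic neurons, averaged 10.14 ± 0.16 log2 units at P1 and 9.81 ± 0.14 at P0 (SD, n = 5 each), against an average array median of 4.96 at P1 and 4.95 at P0. Levels of other cell types were present too, since the 16 measured astrocyte markers averaged 7.61 to 7.88 in P1 mice and 7.45 to 7.80 in P0 mice. Array medians ran from 4.89 to 5.04 at P1 and from 4.86 to 5.12 at P0. Correlations between mice of one age over all probe sets ran from 0.972 to 0.990 at P1 and from 0.973 to 0.984 at P0. The P0 mouse of litter 3 had the highest median, and the P1 mouse of litter 4 had the lowest correlations with its own age.

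Across 16686 probe sets, 63 differed between P1 and P0 (0.378% of those tested; limma with litter number as a block, Benjamini-Hochberg adjusted p under 0.05). Of these 50 were higher at P1 (0.300%) and 13 were lower (0.0779%). They included 46 named genes that rose and 11 that fell, while 6 probe sets had no single gene symbol. Most changes were moderate: the median was 0.68 log2 among the higher probe sets and -0.51 among the lower ones, and 6 called probe sets moved by at least 1 log2 unit, against 22 of all probe sets (0.132%). Counting mice, 49 of the 50 higher probe sets were above their P0 litter number in all 5 litters, where 5.02% of all probe sets were, and 12 of the 13 lower ones were below it in all 5, where 4.83% were. In 40 of the 63 the P1 and P0 mice did not overlap at all, against 1.40% of all probe sets. The 63 were picked by p-values from these same mice, so these counts of mice follow in part from the choice and are no separate support. The exceptions in direction were Bcas1, which was higher in 4 of 5 litters, and Rhpn2, which was lower in 4 of 5.

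No called gene changed direction when mice were left out or the arrays were rescaled or weighted, but the number of calls moved with the mice and the model. The other alternative runs keep each log2 change as it is, so they could not show a reversal. Without the litter block 26 rose and 8 fell. With the spread estimated from the 10 arrays alone none passed, with 1656 at an unadjusted p under 0.05 (the fit to all ages had 1818) and a lowest adjusted p of 0.0972. Quantile normalization gave 100 higher and 60 lower, so that the share of higher calls was 62.5% against 79.4% on the deposited scale. Leaving out 1 mouse moved the higher count to 24 (without P1 litter 2), 27 (P1 litter 3), 29 (P0 litter 1), 32 (P0 litter 5) or 163 (P0 litter 3). The lower count moved to 3 (without P1 litter 1), 5 (P1 litter 2 or 3), 7 (P0 litter 1), 8 (P0 litter 4) or 20 (P0 litter 2). In all, 24 probe sets were called whichever of the 10 mice was left out, and 20 of them have a gene name.

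**Figure D1:**
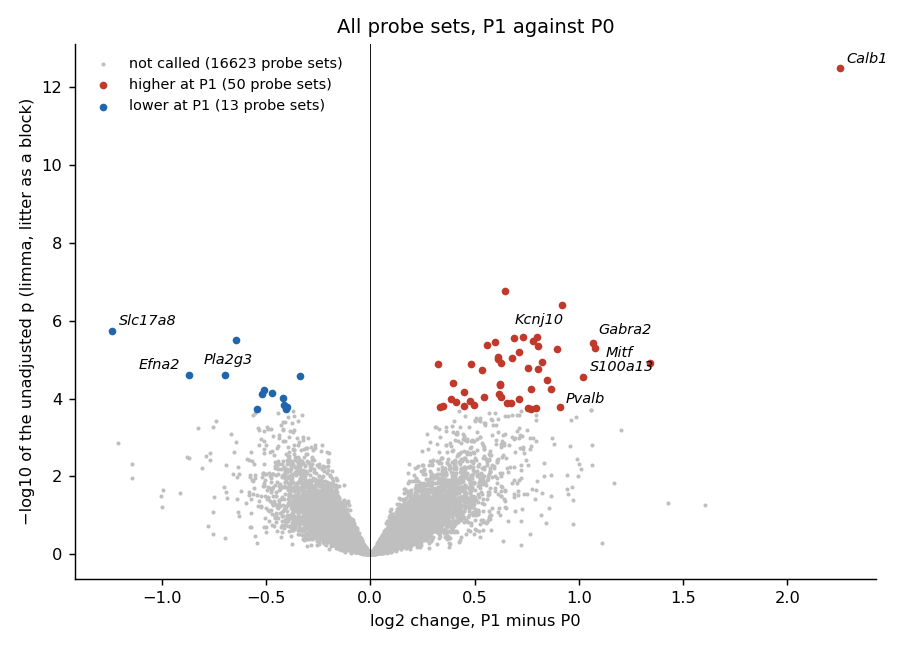
Each point is a probe set, with the log2 change (P1 minus P0) on the x axis and the -log10 of limma's unadjusted p on the y axis. Red marks the 50 probe sets higher at P1, blue the 13 lower ones and grey the rest, and Calb1 stands alone at the top right with a change of 2.25 log2.

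Promoters of 3 called genes are shown first, for the inhibitory receptor subunit Gabra2, the glial potassium channel Kcnj10, and Slc17a8, the largest fall. Each runs 5′ to 3′ on the gene's strand from 250 bases before to 50 bases after a start in RefSeq's annotation of GRCm38.p6, another build than the mm9 of the submitters' processing notes. Capitals mark matches on either strand to 6 short motifs: TATAAA (the TATA box), CCAAT (the CCAAT box), GGGCGG (the GC box) and the E-box forms CACGTG (bound by many helix-loop-helix factors), CATGTG (the M-box) and CAGCTG. No printed match overlaps another.
Gabra2, chr5:71095800-71096099, minus strand: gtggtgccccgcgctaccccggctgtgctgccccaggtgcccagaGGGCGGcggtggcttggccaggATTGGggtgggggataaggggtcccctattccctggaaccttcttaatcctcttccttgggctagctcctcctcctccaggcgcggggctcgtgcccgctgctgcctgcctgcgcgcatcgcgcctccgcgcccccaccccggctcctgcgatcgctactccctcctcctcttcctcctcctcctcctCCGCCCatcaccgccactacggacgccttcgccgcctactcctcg
Kcnj10, chr1:172340960-172341259, plus strand: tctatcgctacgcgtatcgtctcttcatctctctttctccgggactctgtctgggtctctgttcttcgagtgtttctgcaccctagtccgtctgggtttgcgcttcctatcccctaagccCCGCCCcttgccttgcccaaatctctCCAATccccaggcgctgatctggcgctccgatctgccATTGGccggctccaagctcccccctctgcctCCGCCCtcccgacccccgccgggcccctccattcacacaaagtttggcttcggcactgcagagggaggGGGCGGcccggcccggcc
Slc17a8, chr10:89621200-89621499, minus strand: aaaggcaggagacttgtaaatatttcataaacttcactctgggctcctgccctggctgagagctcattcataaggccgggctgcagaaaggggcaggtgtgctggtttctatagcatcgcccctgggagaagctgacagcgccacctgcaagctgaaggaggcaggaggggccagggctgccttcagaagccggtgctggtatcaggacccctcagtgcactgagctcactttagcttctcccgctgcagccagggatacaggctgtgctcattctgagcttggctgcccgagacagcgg
The Gabra2 window held 3 matches and the Kcnj10 window 5, all to GGGCGG or CCAAT, and the Slc17a8 window, which lies at 1 of its 2 starts in the table, held none. Of the 57 called genes 48 were in the promoter table, and Calb1, the largest rise, and Bcas1 were not. GGGCGG stood in 51.0% of the 49 windows of genes higher at P1, in 42.9% of the 14 windows of genes lower at P1 and in 35.7% of all 32851 windows. CCAAT stood in 34.7%, 42.9% and 37.4% of the same windows. Of the higher genes' windows and of all windows, CATGTG stood in 4.08% and 14.2%, TATAAA in 14.3% and 13.6%, CACGTG in 6.12% and 7.15%, and CAGCTG in 16.3% and 16.3%. A match describes these letters and is no evidence of a bound factor.

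Calb1 and Pvalb, calcium-binding proteins that buffer calcium in fast-firing neurons and fill the principal cells of the mature MNTB, both rose. Calb1 measured 6.85, 7.36, 6.78, 6.63 and 7.43 in P1 mice of litters 1 to 5, against 5.14, 5.00, 5.03, 4.13 and 4.49 in P0 mice. The groups lay far apart, the lowest P1 mouse at 6.63 and the highest P0 mouse at 5.14. The change was 2.25 ± 0.17 log2 (adjusted p = 5.68e-09), a 4.76-fold difference whose 95% interval ran from 1.91 to 2.59 log2, and the highest adjusted p with any mouse left out was 9e-08. Its P0 mean lay under the array median. Pvalb measured 6.40, 6.69, 6.60, 6.18 and 6.18 in P1 mice, against 5.70, 5.52, 5.64, 5.65 and 5.22 in P0 mice. Its groups did not overlap, and it rose by 0.87 ± 0.18 log2 (adjusted p = 0.0259), but it kept its call in 6 of the 10 fits that leave out a mouse, with a highest adjusted p of 0.121 without the P1 mouse of litter 2. Without the litter block its adjusted p was 0.0680.

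These were the 2 called members of the 9 measured genes of the principal neuron and glycinergic list, where 0.310% of all genes were called higher. Each list below reads against the same background: of all 14857 genes 51.5% lay above 0, and at an unadjusted p under 0.05 there were 921 higher and 702 lower. Slc6a5 was 10.18, 10.21, 10.30, 9.88 and 10.13 in P1 mice, against 9.70, 9.75, 10.003, 9.68 and 9.91 in P0 mice, a change of 0.33 ± 0.08 log2 (adjusted p = 0.0850) that did not pass although all 5 litters went up. No other member passed: 4 of 9 lay above 0, and the list's median was -0.01 log2, against 0.01 over all genes. Esrrg, an orphan nuclear receptor of these neurons, changed by 0.22 log2, the homeobox factor En1 by -0.28 and the forkhead factor Foxp1 by -0.22, and the GABA-synthesising enzymes Gad1 and Gad2 by -0.01 and -0.06, all without a call.

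Among receptors for the inhibitory transmitters, Gabra2, the alpha-2 subunit of the GABA-A receptor, rose. It measured 6.09, 6.58, 6.295, 6.10 and 6.18 in P1 mice, against 5.29, 5.20, 5.58, 5.23 and 4.60 in P0 mice. The groups did not overlap, and the lowest value was that of the P0 mouse of litter 5. The change was 1.07 ± 0.18 log2 (adjusted p = 0.00584), or 2.10-fold, and it was called with each mouse left out (highest adjusted p 0.0300) and without the litter block (adjusted p = 0.0131). Of the 12 measured GABA-A and glycine receptor subunits, Gabra2 was the only one called (2 were called without the P0 mouse of litter 3, and 2 after quantile normalization). Gabrb2, the beta-2 subunit, had a change of 1.00 log2 that did not pass, and Glrb, the glycine receptor's beta subunit, had 0.47. Glra1, the subunit of the adult glycine receptor, and Glra2, that of the fetal one, had -0.07 and -0.31. In all, 8 of the 12 lay above 0, with a median of 0.27 log2.

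A glial potassium channel gene and a neuronal sodium channel gene rose. Kcnj10 encodes Kir4.1, the inward rectifier through which astrocytes and oligodendrocytes take up potassium, and it measured 6.43, 6.12, 6.31, 6.00 and 6.10 in P1 mice, against 5.58, 5.48, 6.05, 4.72 and 5.14 in P0 mice. The P0 mouse of litter 3 reached the level of the P1 mice and that of litter 4 lay lowest, so the groups overlapped. The change was 0.80 ± 0.13 log2 (adjusted p = 0.00581), called with each mouse left out, but not without the litter block (adjusted p = 0.0887). It was the 1 called member of 25 measured potassium channel genes (0.310% of all genes were called higher), and 20 of them lay above 0 (51.5% of all genes) with a median of 0.13 log2, such as Kcna1 (0.21) and Kcnc1 (0.04), the Kv1.1 and Kv3.1 channels of mature principal neurons. Scn1a, the sodium channel Nav1.1, measured 9.78, 9.73, 9.46, 9.09 and 9.31 in P1 mice, against 8.96, 8.98, 8.58, 8.41 and 8.42 in P0 mice. It rose by 0.80 ± 0.15 log2 (adjusted p = 0.0112), and its groups did not overlap. The paired differences were even, between 0.67 and 0.89, while the call held in 7 of 10 fits that leave out a mouse. Of the other 7 measured sodium and HCN channel genes none was called, and 6 of them lay below 0. The calcium channel genes also gave no call: 6 of 13 lay above 0, and 1 higher and 4 lower had an unadjusted p under 0.05, while quantile normalization gave 2 lower calls. Cacnb1, the beta-1 subunit, had the lowest p with -0.44 ± 0.12 log2 (adjusted p = 0.0985).

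**Figure D2:**
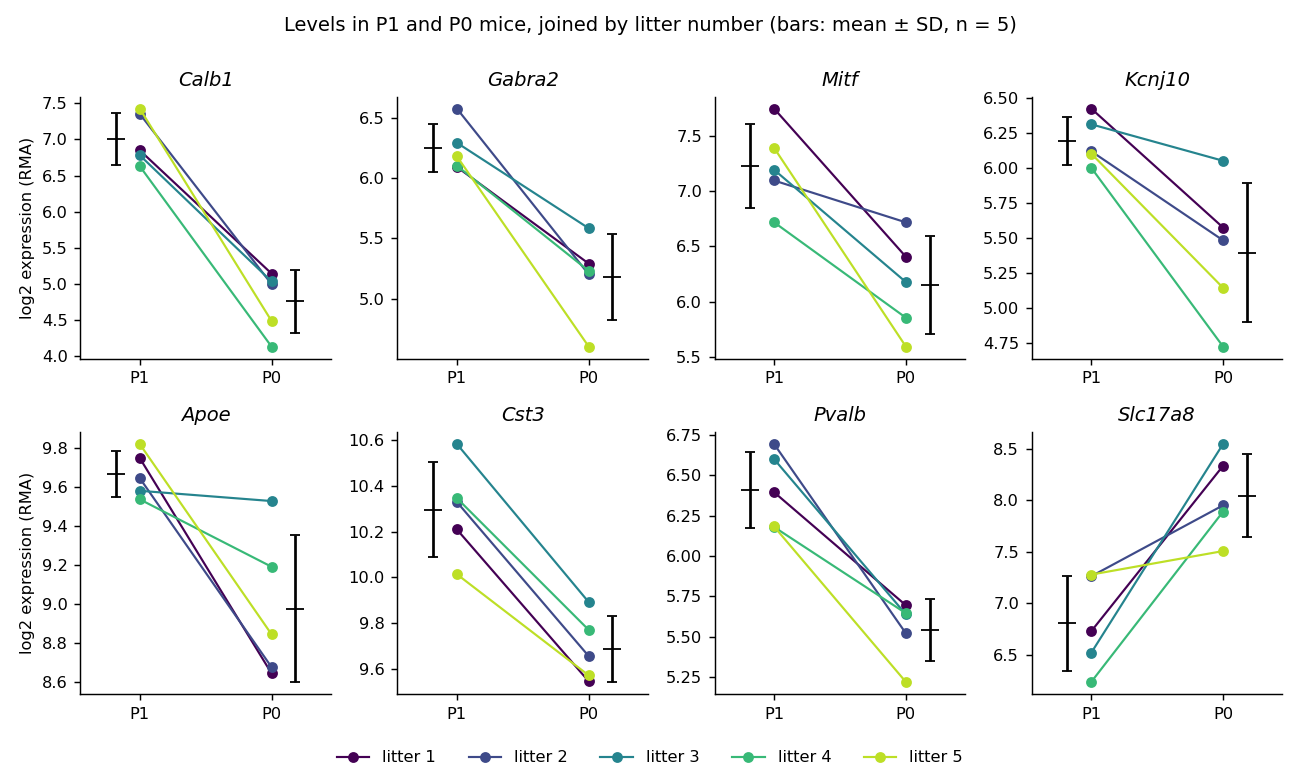
Log2 RMA levels of 8 genes, with P1 mice on the left and P0 mice on the right of each panel, lines joining mice of the same litter number, and bars giving the mean ± SD of 5 mice. The P1 points of Calb1, Gabra2, Mitf, Apoe, Cst3 and Pvalb all lie above their P0 points, those of Slc17a8 all lie below, and Kcnj10 overlaps through the P0 mouse of litter 3.

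Apoe, Cst3, Luzp2 and Dtna, which are on none of the gene lists and were picked after their values were seen, all rose. Apoe, the main lipid carrier that astrocytes release, measured 9.75, 9.65, 9.58, 9.54 and 9.82 in P1 mice, against 8.65, 8.68, 9.53, 9.19 and 8.85 in P0 mice. The P1 mice were tightly grouped and the P0 mice spread widely, with the P0 mouse of litter 3 just under the P1 range. It rose by 0.69 ± 0.12 log2 (adjusted p = 0.00581), called with each mouse left out and without the litter block (adjusted p = 0.00604). Cst3, the protease inhibitor cystatin C, measured 10.21, 10.33, 10.58, 10.35 and 10.01 in P1 mice, against 9.54, 9.65, 9.89, 9.77 and 9.57 in P0 mice. The groups did not overlap, the 5 paired differences lay between 0.44 and 0.69, and the change was 0.61 ± 0.11 log2 (adjusted p = 0.00822). Luzp2, a leucine zipper protein, rose by 0.89 ± 0.16 log2 (adjusted p = 0.00600). Its P1 mice measured 8.83, 9.03, 9.04, 8.58 and 8.86, all above its P0 mice at 7.84, 7.64, 8.42, 8.11 and 7.86. These 3 genes, like Dtna (alpha-dystrobrevin of the dystrophin complex, 0.56 ± 0.10 log2 (adjusted p = 0.00593)), kept their call with each mouse left out.

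In the list of 16 measured astrocyte markers, 3 were called higher (0.310% of all genes were): S100b, a calcium-binding protein, with 0.76 ± 0.17 log2 (adjusted p = 0.0486), the orphan receptor Gpr37l1 with 0.62 ± 0.13 log2 (adjusted p = 0.0309), and the sodium bicarbonate cotransporter Slc4a4 with 0.50 ± 0.11 log2 (adjusted p = 0.0467). Every fit that left out a mouse kept at most 2 of the list, and none was left without the litter block. S100b measured 6.32, 6.51, 7.37, 6.89 and 6.86 in P1 mice, against 5.47, 5.94, 6.26, 6.35 and 6.16 in P0 mice. Those groups overlapped, the P1 mouse of litter 1 falling within the P0 range. Across the list 13 of 16 markers lay above 0 (51.5% of all genes), with a median of 0.17 log2, and the mean level of the list was higher at P1 in all 5 litters. So were the mean levels of the principal neuron and melanocyte lists, although their medians were -0.01 and -0.04 log2. Members without a call included Slc1a3, a glutamate transporter, at 0.39, Aqp4, a water channel, at -0.18, Gfap, an intermediate filament, at 0.05, and Sox9, a glial transcription factor, at -0.07. Kcnj10 and Apoe are not on this list, and the part that the number of astrocytes plays in their change was not tested.

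Further called genes, also picked after their values were seen, encode enzymes that act on lipids. Pla2g7, which breaks down platelet-activating factor, measured 8.02, 8.53, 8.30, 7.75 and 8.06 in P1 mice, against 7.59, 7.09, 7.84, 6.95 and 7.30 in P0 mice. Only the P0 mouse of litter 3 reached into the P1 range, and the change was 0.78 ± 0.13 log2 (adjusted p = 0.00581). Hpgd, the dehydrogenase that inactivates prostaglandins, measured 5.03, 5.52, 5.32, 5.51 and 5.29 in P1 mice, against 4.43, 4.71, 4.63, 4.51 and 4.62 in P0 mice, without overlap, and rose by 0.76 ± 0.14 log2 (adjusted p = 0.0110). Sgpp2, a phosphatase of sphingosine-1-phosphate, rose by 0.73 ± 0.12 log2 (adjusted p = 0.00581) and Plaat3, a phospholipase and acyltransferase, by 0.71 ± 0.13 log2 (adjusted p = 0.00689). All 4 were called with each mouse left out, but Sgpp2 was not called without the litter block (adjusted p = 0.119). In the other direction Pla2g3, a secreted phospholipase, measured 4.44, 5.03, 4.81, 4.73 and 5.02 in P1 mice, against 5.15, 5.61, 6.04, 5.58 and 5.14 in P0 mice. Its groups did not overlap, its P1 mean lay under the array median, and it changed by -0.70 ± 0.14 log2 (adjusted p = 0.0142), with a call in 7 of 10 fits that leave out a mouse.

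Mitf and Kitl, a transcription factor and the ligand of the receptor Kit that are best known together from pigment cells and mast cells, both rose. Mitf measured 7.75, 7.10, 7.19, 6.72 and 7.39 in P1 mice, against 6.41, 6.72, 6.18, 5.86 and 5.60 in P0 mice. The lowest P1 mouse, that of litter 4, lay only just above the highest P0 mouse, that of litter 2. The change was 1.08 ± 0.19 log2 (adjusted p = 0.00593), or 2.11-fold, called with each mouse left out and without the litter block (adjusted p = 0.0145). The other 6 measured melanocyte markers, Tyr, Tyrp1, Dct, Pmel, Oca2 and Slc45a2, lay under the array median at both ages and between -0.08 and 0.08 log2, without a call. Kitl measured 5.98, 5.79, 5.98, 4.91 and 5.43 in P1 mice, against 4.78, 4.76, 5.31, 4.16 and 4.85 in P0 mice. Its P1 mouse of litter 4 lay low, inside the P0 range, its P0 mean was under the array median, and the change of 0.85 ± 0.17 log2 (adjusted p = 0.0179) was called in 4 of 10 fits that leave out a mouse.

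Ramp1, Eps8, Rasgrf1, Rit2 and P2ry13, which stand here together only as called genes, also rose. Ramp1, which turns the calcitonin receptor-like receptor into a receptor for CGRP, rose by 0.82 ± 0.15 log2 (adjusted p = 0.00926), but a second and not called probe set of the gene had 0.35 log2 (adjusted p = 0.645) and the first lost its call without the litter block (adjusted p = 0.0815). Eps8, an actin regulator downstream of growth factor receptors, measured 6.49, 6.57, 6.36, 6.37 and 6.44 in P1 mice, against 6.01, 5.72, 5.62, 5.63 and 6.24 in P0 mice. Its groups did not overlap, it rose by 0.60 ± 0.10 log2 (adjusted p = 0.00581), and it was called in every fit that left out a mouse. Rasgrf1, an exchange factor for Ras, had a change of 0.62 ± 0.13 log2 (adjusted p = 0.0210), and Rit2, a small GTPase of neurons, one of 0.80 ± 0.18 log2 (adjusted p = 0.0486), with calls in 6 and 2 of the 10 fits. P2ry13, an ADP receptor carried by microglia, measured 6.34, 5.94, 5.66, 5.48 and 5.62 in P1 mice, against 5.37, 4.68, 5.25, 4.97 and 4.93 in P0 mice, a rise of 0.77 ± 0.18 log2 (adjusted p = 0.0489) without overlap. Its change lay between 0.68 and 0.83 in the 10 fits, and it was called in 1 of them.

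The microglia list was measured beside P2ry13. None of its 16 members was called (5 had an unadjusted p under 0.05, all higher), although 2 were without the P0 mouse of litter 3 and 1 was after quantile normalization. Of the 16, 13 lay above 0 with a median of 0.17 log2, and 9 were under the array median at both ages. Their mean level ran from 4.76 to 4.99 in P1 mice and from 4.49 to 4.92 in P0 mice. Tyrobp, a signalling adaptor, had 0.87 ± 0.24 log2 (adjusted p = 0.107), the protease Ctss 0.72, the chemokine receptor Cx3cr1 0.60 and P2ry12, a second ADP receptor, 0.35. The levels of the list were higher at P1 in all 5 litters, and the part of microglial number in the change of P2ry13 was not tested.

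Hdac9, Hivep2 and Mbnl2 rose and Ebf2 fell. Hdac9, a class IIa histone deacetylase, measured 10.35, 10.22, 10.09, 10.18 and 10.31 in P1 mice, against 9.79, 9.69, 9.78, 9.82 and 9.64 in P0 mice. The groups did not overlap, and the rise of 0.48 ± 0.09 log2 (adjusted p = 0.00926) was called without the litter block too (adjusted p = 0.0152). Hivep2, a zinc finger factor, rose by 0.63 ± 0.12 log2 (adjusted p = 0.00926) and Mbnl2, a muscleblind splicing regulator, by 0.68 ± 0.12 log2 (adjusted p = 0.00831). All 3 were called with each mouse left out. Ebf2, a transcription factor of differentiating neurons, fell: it measured 8.38, 8.44, 8.42, 7.93 and 8.41 in P1 mice, against 8.90, 8.58, 8.85, 8.55 and 8.73 in P0 mice. Its groups did not overlap, the P1 mouse of litter 4 lying lowest, and its change of -0.40 ± 0.09 log2 (adjusted p = 0.0489) was called in 1 of 10 fits that leave out a mouse.

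Of the oligodendrocyte lineage, Bcas1 rose, a marker of oligodendrocytes that have just begun to make myelin. It measured 6.23, 6.59, 5.74, 6.41 and 6.50 in P1 mice, against 5.31, 5.28, 5.84, 5.73 and 5.30 in P0 mice. In litter 3 the P1 mouse lay slightly below the P0 mouse, and in the other 4 litters it lay well above. The change was 0.80 ± 0.14 log2 (adjusted p = 0.00593), called with each mouse left out and without the litter block (adjusted p = 0.00457). It was the 1 called gene of 15 measured markers of precursors and newly formed oligodendrocytes (0.310% of all genes were called higher), 13 of which lay above 0 (51.5% of all genes) with a median of 0.11 log2. After quantile normalization or median centring of the arrays 11 lay above 0, and the median ran from 0.03 to 0.21 with a mouse left out. Gpr17, an orphan receptor of committed precursors, had 0.74 and Tcf7l2, a transcription factor of the same stage, 0.48, while the precursor markers Pdgfra, Cspg4, Olig1 and Olig2 lay between -0.07 and 0.02. The mean level of the 15 markers ran from 5.55 to 5.83 in P1 mice and from 5.29 to 5.60 in P0 mice. None of 16 measured genes of myelin and mature oligodendrocytes was called, with 4 higher at an unadjusted p under 0.05, among them Tspan2 (0.66) and the lipid enzymes Ugt8a (0.54) and Gal3st1 (0.50). Of the 16, 10 lay above 0 with a median of 0.08 log2, and 8 were under the array median at both ages.

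Slc17a8 had the largest fall. It encodes VGLUT3, a vesicular glutamate transporter that developing inhibitory neurons of the auditory brainstem use for a time. It measured 6.73, 7.26, 6.52, 6.24 and 7.28 in P1 mice, against 8.33, 7.95, 8.55, 7.89 and 7.51 in P0 mice. The groups did not overlap, although in litter 5 the pair differed by only -0.23, against -2.03 in litter 3. The change was -1.24 ± 0.20 log2 (adjusted p = 0.00581), which makes the P1 level 0.423 of the P0 level, and it was called with each mouse left out and without the litter block (adjusted p = 0.00604). It was the 1 called member of 12 measured markers of glutamatergic neurons, where 0.0740% of all genes were called lower. Slc17a6 and Slc17a7, the other vesicular glutamate transporters, had 0.44 and 0.02 log2.

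The other genes that fell are described singly. Efna2, an ephrin ligand, measured 3.07, 3.25, 3.52, 3.61 and 3.45 in P1 mice, against 4.50, 4.13, 4.27, 4.06 and 4.27 in P0 mice. Its groups did not overlap, but both lay under the array median, and the change of -0.87 ± 0.17 log2 (adjusted p = 0.0142) was called in 7 of 10 fits that leave out a mouse. It was the 1 called member of 17 measured ephrins and Eph receptors (0.0740% of all genes were called lower), 10 of which lay above 0. Cxcr4, the receptor for the chemokine CXCL12 that guides migrating neurons, measured 4.95, 5.34, 5.38, 5.55 and 5.18 in P1 mice, against 5.82, 5.92, 6.18, 5.55 and 5.63 in P0 mice. The change was -0.54 ± 0.12 log2 (adjusted p = 0.0492), and in litter 4 the pair differed by -0.01. Tubb5, a beta-tubulin of dividing cells and young neurons, measured 11.25, 11.32, 11.22, 11.08 and 11.23 in P1 mice, against 11.57, 11.49, 11.67, 11.54 and 11.50 in P0 mice, a change of -0.33 ± 0.07 log2 (adjusted p = 0.0146) without overlap. Psd, an exchange factor for Arf6 at synapses and dendrites, had -0.42 ± 0.09 log2 (adjusted p = 0.0358), Strn4, a striatin scaffold, -0.41 ± 0.09 log2 (adjusted p = 0.0473), Tspan9, a tetraspanin, -0.40 ± 0.09 log2 (adjusted p = 0.0479), and Rhpn2 -0.51 ± 0.11 log2 (adjusted p = 0.0272). The odorant receptor Olfr881 had -0.52 ± 0.11 log2 (adjusted p = 0.0309), with both ages under the array median. Of these, Tubb5 was called in 8 of the 10 fits, Olfr881 in 5, Rhpn2 and Tspan9 in 4, Psd in 3, and Cxcr4 and Strn4 in 2.

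The remaining genes that rose are of mixed kinds. S100a13, a calcium-binding protein of the S100 family, measured 7.17, 8.11, 8.03, 8.66 and 7.53 in P1 mice, against 6.40, 6.85, 7.44, 7.01 and 6.69 in P0 mice, with overlap through the P1 mouse of litter 1 and a change of 1.02 ± 0.20 log2 (adjusted p = 0.0149). It was called in 6 of 10 fits that leave out a mouse and not without the litter block (adjusted p = 0.0751). Cryab, a small heat shock protein, had 0.77 ± 0.16 log2 (adjusted p = 0.0259) and was the 1 called gene of 8 measured chaperones (0.310% of all genes were called higher). It was called in 5 of the 10 fits (highest adjusted p 0.120) and not without the litter block (adjusted p = 0.131). Nefh, the heavy neurofilament of thick axons, measured 7.46, 7.61, 7.48, 7.03 and 7.33 in P1 mice, against 6.87, 6.74, 7.22, 6.40 and 7.01 in P0 mice. It overlapped at the P1 mouse of litter 4, and its change of 0.54 ± 0.10 log2 (adjusted p = 0.0112) was called in 9 of 10 fits that leave out a mouse, but not without the litter block (adjusted p = 0.0865). Hapln1, a link protein of the hyaluronan matrix, had 0.33 ± 0.06 log2 (adjusted p = 0.00926). It was the 1 called gene of 25 measured matrix and perineuronal net genes (0.310% of all genes were called higher), 15 of which lay above 0. It lost its call after quantile normalization (adjusted p = 0.252) and without the P1 mouse of litter 3 (adjusted p = 0.0509). Hrc, a histidine-rich calcium-binding protein, rose by 0.61 ± 0.11 log2 (adjusted p = 0.00831) and was called with each mouse left out. Also called, in 1 to 5 of the 10 fits, were Gatm, which makes the precursor of creatine (0.72 ± 0.16 log2 (adjusted p = 0.0366)), Ptn, the growth factor pleiotrophin (0.40 ± 0.08 log2 (adjusted p = 0.0201)), Cybrd1, a ferric reductase (0.66 ± 0.15 log2 (adjusted p = 0.0422)), Hsdl2, a peroxisomal enzyme (0.62 ± 0.13 log2 (adjusted p = 0.0204)), Sema6d, a semaphorin (0.35 ± 0.08 log2 (adjusted p = 0.0475)), and Mavs, an adaptor of antiviral signalling (0.39 ± 0.08 log2 (adjusted p = 0.0366)). The other called genes were Aif1l, Rbl1, Cfap36, Rap2a, Dtl, Slc13a3, Lmbrd1 and Svep1, whose changes ran from 0.33 to 0.67 log2. Each was called in 1 to 4 of the 10 fits, and a second probe set of Lmbrd1 was not called (0.37 log2, adjusted p = 0.681).

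**Figure D3:**
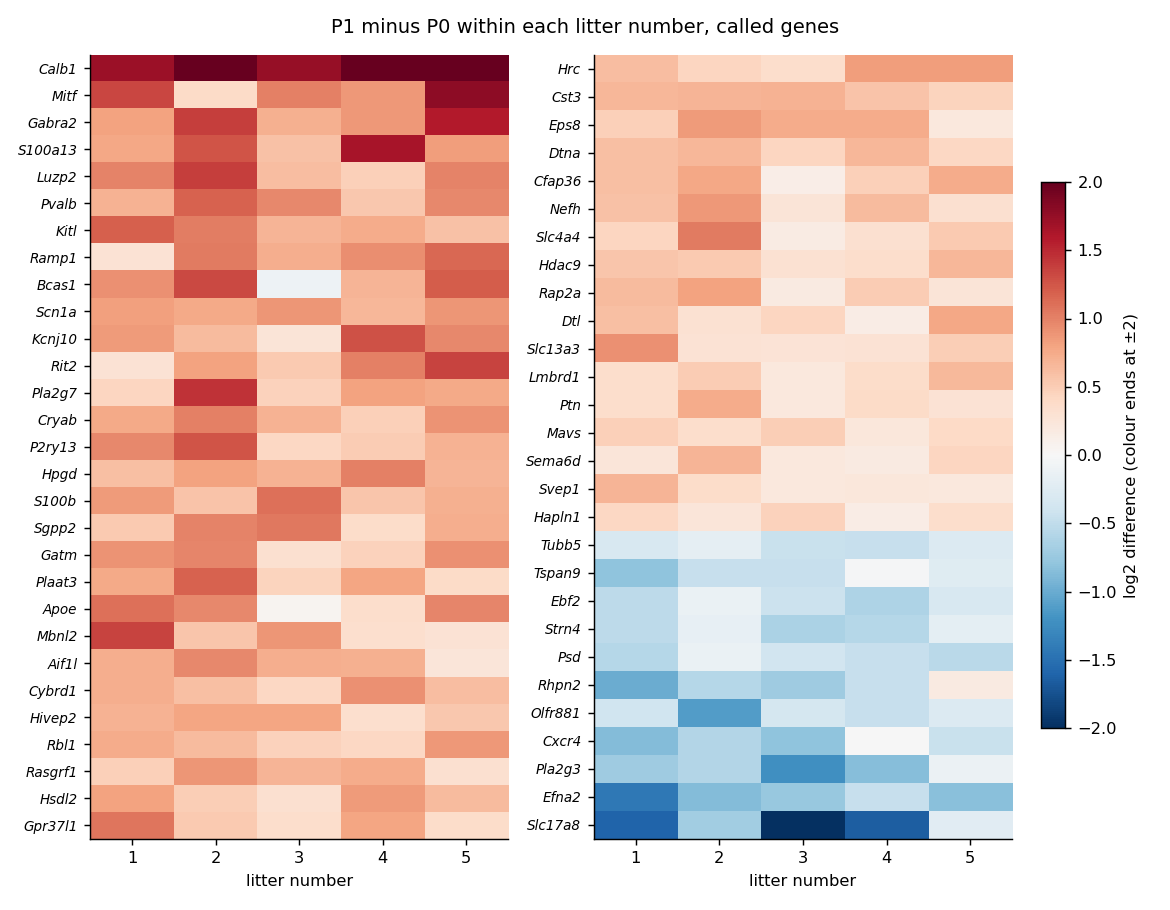
Paired log2 differences, P1 minus P0, of the 57 called genes (rows, from the largest rise to the largest fall) in litter numbers 1 to 5 (columns), red where the P1 mouse was higher and blue where it was lower. Nearly all cells of a gene share 1 colour, and the departures are Bcas1 in litter 3 (-0.10) and Rhpn2 in litter 5 (0.17).

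Beyond single genes, members were counted in 42 gene lists, of which only a part is described here. Those left out include Wnt signalling (24 of 41 above 0), semaphorins and plexins (14 of 27), netrins and slits (9 of 18) and nicotinic receptors (3 of 9). Among 21 measured genes of immature neurons and neurite growth none was called (6 had an unadjusted p under 0.05, all lower), while 3 lay above 0 and the list's median was -0.27 log2, against 0.01 over all genes. Dcx, the microtubule protein of migrating neurons, measured 10.26, 10.49, 10.41, 9.71 and 10.47 in P1 mice, against 10.66, 10.57, 10.86, 10.75 and 10.52 in P0 mice. The P1 mouse of litter 4 lay far below the rest, and the change of -0.40 ± 0.15 log2 (adjusted p = 0.276) did not pass. Dpysl5, a collapsin response mediator, had -0.49 ± 0.13 log2 (adjusted p = 0.0840), the tubulin Tubb2b -0.47, the transcription factor Sox4 -0.37, Mapt, the tau protein, -0.38, and Gap43, a growth cone protein, -0.14. The list's median stayed between -0.31 and -0.15 with each mouse left out, and was -0.31 after quantile normalization. That scaling left 0 of 21 above 0 and gave 2 lower calls, Dpysl5 (adjusted p = 0.0151) and Dcx (adjusted p = 0.0355).

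Cell cycle genes lay mostly above 0, 25 of 28 measured, with a median of 0.17 log2, and none was called (10 had an unadjusted p under 0.05, all higher). Without the P0 mouse of litter 3 there were 4 calls, and after quantile normalization 2. Bub1, a mitotic checkpoint kinase, had 0.61 ± 0.16 log2 (adjusted p = 0.0894), the topoisomerase Top2a 0.64, the kinesin Kif11 0.58, Ccne2, a cyclin of entry into S phase, 0.69, and Mki67, a marker of cycling cells, 0.40. Outside the list, Rbl1, a relative of the retinoblastoma protein, rose by 0.62 ± 0.13 log2 (adjusted p = 0.0348) and Dtl, which marks replication proteins for destruction, by 0.45 ± 0.09 log2 (adjusted p = 0.0286), with calls in 2 and 4 of 10 fits that leave out a mouse.

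The lists picked for the change of milieu at birth gave 1 call among them. Of 22 measured genes of fatty acid oxidation and ketone bodies, the fuels of the suckling brain, none was called (6 had an unadjusted p under 0.05, all higher; 1 was called without the P0 mouse of litter 3), but 19 lay above 0 with a median of 0.21 log2, and the list's mean level was higher at P1 in all 5 litters. Decr1, a mitochondrial reductase of unsaturated fatty acids, had 0.49, Hadha, a subunit of the trifunctional protein, 0.30, Cpt1a, the gate of fatty acid entry, 0.27, and Oxct1, which activates ketone bodies, 0.22. Ppargc1a, a coactivator of mitochondrial genes, had 0.29 ± 0.08 log2 (adjusted p = 0.116). Mitochondrial respiration genes had 16 of 18 above 0 and a median of 0.15 log2 on the deposited scale, against 11 of 18 and 0.05 after quantile normalization, with no call (2 higher at an unadjusted p under 0.05).

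Hypoxia-responsive genes had 11 of 23 above 0, glucocorticoid-responsive genes 12 of 18, circadian clock genes 10 of 15 and thyroid hormone-responsive genes 10 of 18, with medians of -0.01, 0.08, 0.05 and 0.05 log2. The 1 call was Nefh, in the last of these lists. Unadjusted p-values under 0.05 numbered 1 higher and 1 lower for hypoxia, 2 and 0 for glucocorticoid, 3 and 0 for the clock, and 3 and 2 for thyroid hormone. Quantile normalization gave 1 higher call in the glucocorticoid list. Nr3c1, the glucocorticoid receptor, had 0.60 ± 0.16 log2 (adjusted p = 0.113), Hlf, a clock output factor, 0.50 ± 0.16 log2 (adjusted p = 0.188), and Egln3, an oxygen-sensing hydroxylase, 0.71 ± 0.27 log2 (adjusted p = 0.294). Immediate-early genes, which rise with neuronal activity, had no call among 22 measured (2 higher at an unadjusted p under 0.05), with Fosl2 at 0.39 ± 0.10 log2 (adjusted p = 0.0788) and Fos at 0.36. Cholesterol synthesis genes had 3 of 17 above 0 and a median of -0.12 log2, with no call and 1 lower at an unadjusted p under 0.05, Fdft1, squalene synthase, at -0.29 ± 0.13 log2 (adjusted p = 0.427).

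**Figure D4:**
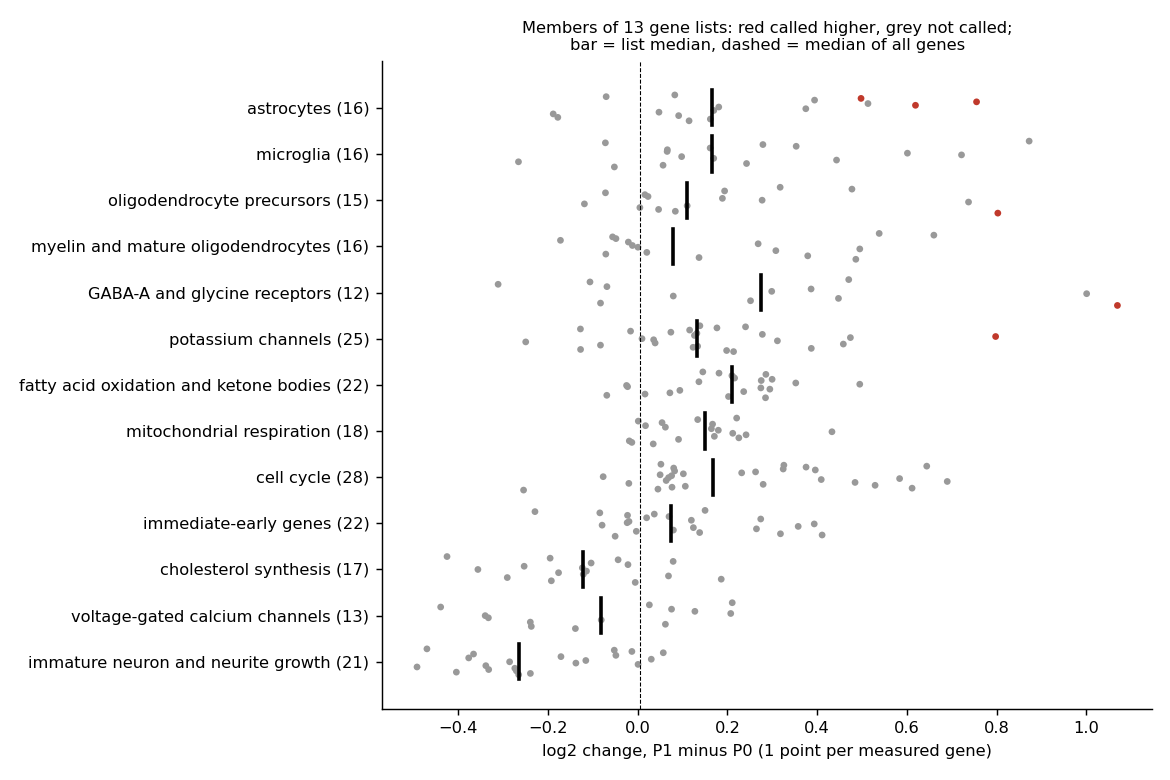
Each point is a measured gene of 1 of 13 lists, with its log2 change (P1 minus P0) on the x axis, red where called higher and grey where not called, black bars at list medians and a dashed line at the median of all genes. The points of immature neuron genes lie mostly left of the dashed line around -0.27, and those of fatty acid oxidation genes mostly right of it around 0.21.

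The synaptic lists below gave 1 call. At the shares called among all genes (0.310% higher and 0.0740% lower), lists of this size would be expected to hold hardly any. Of 23 measured synaptic vesicle and release genes 12 lay above 0 with none called (1 each way at an unadjusted p under 0.05), and Syt2, the calcium sensor of the mature calyx, had 0.40 ± 0.16 log2 (adjusted p = 0.337), with all 5 litters up. Of 13 ionotropic glutamate receptor subunits 6 lay above 0 with none called (1 each way at an unadjusted p under 0.05), and Gria3, an AMPA receptor subunit, had 0.42 ± 0.17 log2 (adjusted p = 0.354). The active zone and scaffold list had 1 call, Psd, among 26 (0.0740% of all genes were called lower). Among signalling lists, Bmp5, a BMP ligand, measured 5.23, 6.25, 5.95, 5.30 and 6.22 in P1 mice, against 3.95, 5.03, 4.70, 5.24 and 4.74 in P0 mice, or 1.06 ± 0.24 log2 (adjusted p = 0.0516). Dact1, a Wnt pathway modulator, had -0.77 ± 0.23 log2 (adjusted p = 0.162), with the P1 mouse of litter 4 alone far below the other P1 mice.

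Markers of vessels, meninges and red cells gave no call, and lists this small would hold hardly any at the shares called among all genes (0.310% higher and 0.0740% lower). Endothelial markers had 6 of 15 above 0, pericyte and smooth muscle markers 8 of 12, and meningeal fibroblast markers 2 of 13 (at an unadjusted p under 0.05, 3 lower, 1 higher and 2 lower). Crabp2, a retinoic acid-binding protein of the meninges, had -0.87 ± 0.27 log2 (adjusted p = 0.188). Erythroid markers had 1 of 3 above 0, with Alas2, the heme enzyme of red cell precursors, at -0.34 ± 0.12 log2 (adjusted p = 0.259). Mean levels of the meningeal list ran from 4.26 to 4.47 in P1 mice and from 4.30 to 4.84 in P0 mice, and those of the erythroid list from 4.35 to 4.63 in P1 mice and from 4.58 to 4.71 in P0 mice. Their part in the changes above was not tested.

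The same fit gave the later days for comparison. P2 against P1, which shares the P1 mice, had 8 probe sets higher and 1 lower (0.0539% called). P3 against P2, with other mice, also had 8 higher and 1 lower (0.0539%), and P4 against P3 had 2 higher and none lower (0.0120%; 589 at an unadjusted p under 0.05). A test of the difference between the P1 and P3 steps, (P1 minus P0) minus (P3 minus P2), called 1 probe set of 16686, with 1130 at an unadjusted p under 0.05 (0.00599% called). It was Calb1, whose step was larger by 1.56 ± 0.23 log2 (adjusted p = 0.00844), with changes of 2.25 for P1 against P0 and 0.69 for P3 against P2. For the other genes no difference between the steps passed this test. A fit added after the data were seen, without the 3 arrays that limma weighted lowest, gave 82 probe sets, and 0 with no litter block as well.

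Whether the genes of the first day went on in the same direction was read in P6 against P2, whose mice share none with P1 or P0 and in which 2.94% of all probe sets rose and 2.64% fell. All comparisons of this fit use the same estimate of spread for a probe set, taken over all ages. A probe set with a small spread is thus called more easily at P1 and later alike, and the shares over all probe sets are not a matched background. Of the 50 probe sets higher at P1, 22 rose again and 2 fell, and 40 had a change above 0. Of the 13 lower at P1, 6 fell again and none rose, and 11 had a change below 0. The count moving in the same direction, 28 in all, was 14 without the litter block, 66 after quantile normalization and between 13 and 51 with a mouse left out, since each fit makes its own calls at P1. It was 13 without the P1 mouse of litter 2 and 51 without the P0 mouse of litter 3.

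The genes that rose on differ in how steeply. Pvalb changed by 3.05 ± 0.18 log2 (adjusted p = 5.33e-12) for P6 against P2, Gpr37l1 by 2.25 ± 0.13 log2 (adjusted p = 5.33e-12), Calb1 by 2.00 ± 0.17 log2 (adjusted p = 3.99e-09) and S100b by 1.56 ± 0.17 log2 (adjusted p = 5.47e-07). Kcnj10 had a change of 0.78 ± 0.13 log2 (adjusted p = 0.000275) and Mitf of 0.96 ± 0.19 log2 (adjusted p = 0.00136). Bcas1 had 1.13 ± 0.14 log2 (adjusted p = 3.02e-06), Kitl 1.30 ± 0.17 log2 (adjusted p = 7.12e-06) and Nefh 1.17 ± 0.10 log2 (adjusted p = 8.15e-09). By contrast Gabra2 had 0.51 ± 0.18 log2 (adjusted p = 0.119), Luzp2 0.30 ± 0.16 log2 (adjusted p = 0.371), Cst3 0.24 ± 0.11 log2 (adjusted p = 0.266), Hivep2 -0.05 ± 0.12 log2 (adjusted p = 0.911) and Ptn -0.14 ± 0.08 log2 (adjusted p = 0.420), none of them called. Luzp2 averaged 9.24 ± 0.24 at P6 and 8.87 ± 0.19 at P1, and Ptn 9.33 ± 0.08 at P6 and 9.47 ± 0.14 at P1 (SD, n = 5 each). Hdac9 and Dtl turned round, with -0.30 ± 0.09 log2 (adjusted p = 0.0434) and -0.38 ± 0.09 log2 (adjusted p = 0.0133).

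Among the genes that fell, Slc17a8 kept falling, with -1.55 ± 0.20 log2 (adjusted p = 7.37e-06) for P6 against P2, and its mean ran through 8.04 ± 0.41 at P0, 6.80 ± 0.46 at P1, 5.80 ± 0.51 at P2, 4.90 ± 0.36 at P3 and 4.23 ± 0.15 at P4 (SD, n = 5, and 4 at P4). Ebf2 had -0.70 ± 0.09 log2 (adjusted p = 9.94e-06), Tubb5 -0.37 ± 0.07 log2 (adjusted p = 0.000463), Rhpn2 -0.81 ± 0.11 log2 (adjusted p = 9.9e-06) and Psd -0.32 ± 0.09 log2 (adjusted p = 0.0345). Pla2g3 (-0.04 ± 0.14 log2 (adjusted p = 0.932)), Efna2 (-0.06 ± 0.17 log2 (adjusted p = 0.932)) and Cxcr4 (-0.26 ± 0.12 log2 (adjusted p = 0.317)) did not pass. In P14 against P6, where 16.2% of all probe sets rose and 6.14% fell, 19 of the 50 higher probe sets rose and 12 fell, and of the 13 lower ones 3 fell and 2 rose. Hapln1, Hrc and Cybrd1 were among the falls, with -0.93 ± 0.06 log2 (adjusted p = 2.47e-11), -1.38 ± 0.12 log2 (adjusted p = 1.19e-09) and -1.14 ± 0.16 log2 (adjusted p = 2.95e-06), and Plaat3 among the rises, with 2.75 ± 0.14 log2 (adjusted p = 2.47e-14).

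**Figure D5:**
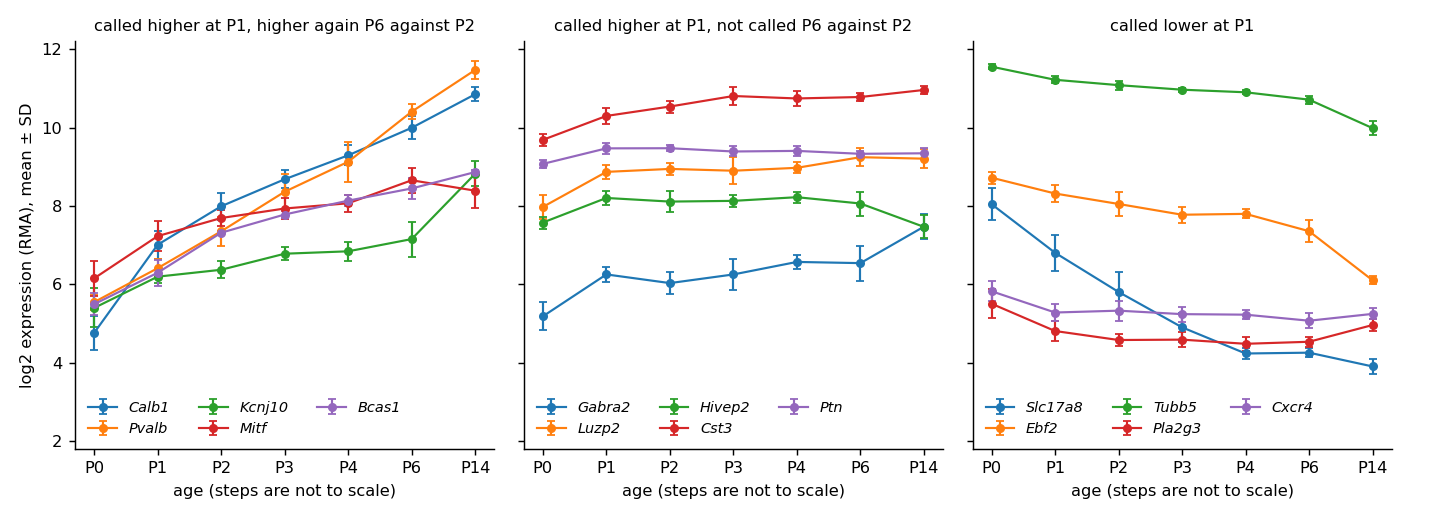
Mean log2 RMA level ± SD of 15 called genes at the 7 ages of the series (5 mice per age, 4 at P4 and P14), split into genes that rose again in P6 against P2, genes that rose but were not called there, and genes that fell at P1. Pvalb and Calb1 keep climbing to above 10 at P14, Luzp2, Hivep2 and Ptn stay nearer to their P1 levels until P6, and Slc17a8 drops to 4.23 by P4.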

How the data were processed

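The log2 values used here were deposited by the authors and came from RMA in Partek 6.3 on the build mm9, according to the submitters' processing notes, which give no settings. RNA was amplified from small needle samples, which adds array variation, and levels cannot be compared between probe sets. Of 16686 probe sets, 14993 had 1 symbol in the platform annotation, 1019 several and 674 none; 14939 symbols were updated through RefSeq's GRCm38.p6 table by Entrez number.

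A limma model (limma 3.58.1, R 4.3.3) took all 33 arrays, with a mean per age and the litter number as a fixed block, after a check on simulated data. P-values are two-sided and adjusted by Benjamini and Hochberg's method across every probe set, and calls are made under 0.05. SE, the value after ± for a change, is limma's moderated standard error, and it and the 95% intervals use a spread pooled over all 7 ages. For a gene that varies more at P0 or P1 than at other ages they understate the spread of the mice compared. Apoe, for example, had an SD of 0.38 at P0 and 0.12 at P1. Limma's array quality weights, lower for noisier arrays, ran from 0.475 to 1.02 at P0 and from 0.856 to 2.14 at P1. P-values measure the spread that remains between single mice after age and litter number are taken out, pooled over all 7 ages. Residuals of P1 and P0 mice with the same litter number, after each age's mean was taken out, correlated at 0.144, 0.111, 0.360, 0.198 and 0.0519. The mean for other numbers was -0.0440, but taking out the age means forces it below 0 when the same-number mean is above 0. It is therefore no separate support for the pairing. The P1 mouse of litter 2 correlated more with a P0 mouse of another number (0.259) than with that of its own (0.111). The 95% intervals cover variation between arrays only.

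Members, lists and tests were chosen with earlier results of these data known. The rule named the 14 largest rises and falls among called genes with the same sign in all litters, up to 4 called members per list (or the member with the lowest p), Calb1, Pvalb, Slc17a8, Slc6a5, Dcx, Gabra2, Mitf, Efna2, Psd and Pla2g3, and up to 4 genes each way in later comparisons. Other called genes, such as Apoe, Cst3, Hpgd, Sgpp2, Plaat3, Eps8, Dtna, Mbnl2, Hrc, Hivep2 and Hdac9, and further list members were named after their values were seen. In lists a gene is represented by its brightest probe set. Alternatives were no block, a random block, the 10 arrays alone, quantile or median scaling, a filter on dim probe sets, array weights, another prior, and each mouse left out.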

Additional observations from a re-analysis of the deposited data

Results flagged for a closer look

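In 13 of 186 groups of 5 mice checked, 1 mouse stood apart from the others of its age by more than 0.710 of the group's range. Chance alone marks about 1 in 20 groups. The P1 mouse of litter 4 was the low one for Ebf2 (7.93), Dact1 (5.75), Alas2 (5.18), Dcx (9.71), Rgs5 (8.14), Rbl1 (5.01) and Gatm (7.31). The P1 mouse of litter 1 was the high one for Gpr37l1 (5.25) and Svep1 (5.08). The P0 mouse of litter 3 was the high one for Cryab (7.23), Alas2 (6.42) and Cybrd1 (6.12) and the low one for Hivep2 (7.31). Calb1 is included because its change differed between steps: the P1 step exceeded the P3 step by 1.56 log2 (limma, adjusted p = 0.00844).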

How the results depend on the processing

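No result reversed its direction under any of the 20 alternatives. Those with no block or a random block on the full set of arrays, the 10 arrays alone, another prior or the dim filter could not show a reversal. They leave each log2 change as in the main fit and bear only on the calls. Over the 93 called or named results, 441 comparisons with an alternative lost a call, 29 gained one and 1375 left the call status unchanged. The unchanged ones include comparisons of named genes that were not called in the main fit and stayed so. Higher and lower counts of P1 against P0, 50 and 13 in the fit with the replicate block, were 26 and 8 with no replicate block, 44 and 11 with litter as a random block, 0 and 0 in the 10 arrays alone, 100 and 60 after quantile normalization, 81 and 31 with arrays centred on their medians, 61 and 7 without dim probe sets, 77 and 13 with array weights, and 39 and 7 with a trended robust prior. With each mouse left out in turn they ran from 24 to 163 and from 3 to 20. Probe sets called in the same direction at P6 against P2 numbered 28, and 14 with no replicate block, 66 after quantile normalization, 43 after centring and 13 to 51 with a mouse left out. Those called in the opposite direction numbered 2, and 0 with no replicate block, 7 after quantile normalization, 0 without dim probe sets, 4 with array weights and 0 to 9 with a mouse left out. The difference from the P3 step called 1 probe set, and 1 to 2 with a mouse left out.

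An alternative chosen after seeing the data left out the 3 arrays of lowest quality weight (P14 litter 2, P3 litter 4 and P0 litter 4). It gave 124 higher, 19 lower, 45 in the same and 11 in the opposite direction at P6, and 82 that differed from the P3 step. With no replicate block as well, it gave 15, 4, 7, 1 and 0. The causes were not tested.

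With 5 mice per age and RNA amplified from small samples, the calls depend on single mice, and the pairing rests on litter numbers whose meaning across ages is not stated. Of the 63 calls, 34 were also made in the unpaired fit, and 21 of the 24 that survived each left-out mouse were among them. Calls of P1 against P0 rest on a spread shared by all 7 ages.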
